A study of Mus musculus with 16 samples.

Results

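The comparison described here sets inguinal white adipose tissue of mice lacking Kmo on a high-fat diet (HFD) against that of wild-type (WT) mice on the same diet. Its members were chosen by their labels, not by any measured value: 4 KO HFD libraries and 4 WT HFD libraries, 8 of the 16 in the series, and every gene with enough counts was described. The KO HFD mice were males without Kmo in the whole body, 6 to 7 months old, fed HFD. The WT HFD mice were male littermates of the same age with an intact Kmo, fed HFD. Groups of 4 KO and 4 WT males of that age on chow entered the statistical model only to share its estimate of the spread between samples. The strain, the Kmo allele, the composition of the HFD and its duration are not given in the sources used here. Each library came from poly-A RNA of a fat pad.

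Kmo encodes kynurenine 3-monooxygenase, a flavoprotein of the outer mitochondrial membrane. It turns kynurenine, the first stable product of tryptophan breakdown, into 3-hydroxykynurenine, which leads on to NAD; without it kynurenine is left for kynureninase and for the aminotransferases that make kynurenic acid. In fat, kynurenine can activate the aryl hydrocarbon receptor, and kynurenic acid can act on the receptor Gpr35 of adipocytes and immune cells. The inguinal pad surrounds a lymph node and lies against skeletal muscle, so RNA of both can enter a library.

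Lymphoid and muscle RNA varied strongly between these pads. The mean log2 CPM (CPM is a count relative to library size) of 23 B and T cell genes was 4.90, 0.11, 0.90 and 0.59 in KO HFD replicates 1 to 4, against 0.88, 4.43, 1.60 and −0.14 in WT HFD replicates 1 to 4. Thus 1 library of each genotype, KO HFD replicate 1 and WT HFD replicate 2, stood far above the rest, and the groups overlapped. Skeletal muscle genes had a mean log2 CPM of 4.07, 0.57, 3.36 and 1.11 in KO HFD libraries, against 4.29, 4.62, 5.87 and 1.36 in WT HFD libraries. The muscle values overlapped too, but their mean was lower in KO HFD (2.28 ± 1.70) than in WT HFD (4.03 ± 1.91; SD, n = 4 each). Of 11 markers of skin and mammary epithelium, 7 were too scarce to test, among them Krt5 with 0 and Krt14 with 7 counts over all 8 libraries, while Trp63 had 443, Krt19 154 and Epcam and Cdh1 33 each. The mean log2 CPM of those 4 was highest in KO HFD replicate 1, at 0.55. Library totals ran from 13824404 to 16909361 counted read pairs in KO HFD and from 15094130 to 16701388 in WT HFD. In a bulk sample, fewer cells of a type and less RNA per cell cannot be told apart.

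**Figure D1:**
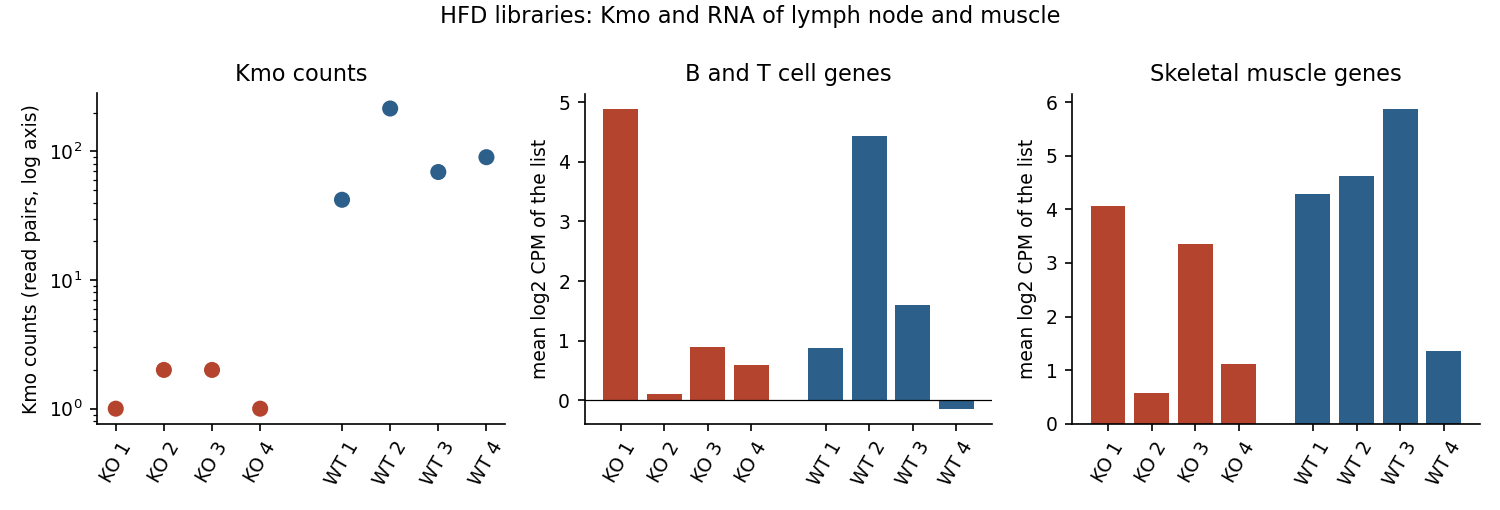
Kmo counts on a log axis (left), mean log2 CPM of B and T cell genes (middle) and of skeletal muscle genes (right) in each HFD library, KO in red and WT in blue. Each KO library held 1 or 2 Kmo counts, and WT libraries held 42 to 215; the lymphoid value was above 4 in KO 1 and WT 2 alone.

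Across all expressed genes, Kmo alone passed the test between KO and WT fat on HFD. Of 16549 genes tested, 1 passed an adjusted p under 0.05 (edgeR quasi-likelihood test with Benjamini-Hochberg adjustment), a share of 0.00604%, and that gene was Kmo. An unadjusted p under 0.05 was reached by 188 genes (1.14%): 92 higher in KO (0.556%) and 96 lower (0.58%). The 4 KO libraries lay wholly above or below the 4 WT libraries for 235 genes (1.42%), of which 142 were higher in KO (0.858%) and 93 lower (0.562%). DESeq2 also called 1 gene, with 198 at an unadjusted p under 0.05 (1.2%), and limma-voom with quality weights called 0 with 912 (5.51%). Log2 fold changes (KO over WT throughout) were spread evenly about 0, with 50.6% of genes above 0, a median of 0.002 and 90% of genes between −0.46 and 0.43. The precision was limited: the 95% interval of a gene reached 0.44 to either side of its estimate in the median, and for 72.8% of genes the whole interval lay within 1 of 0.

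**Figure D2:**
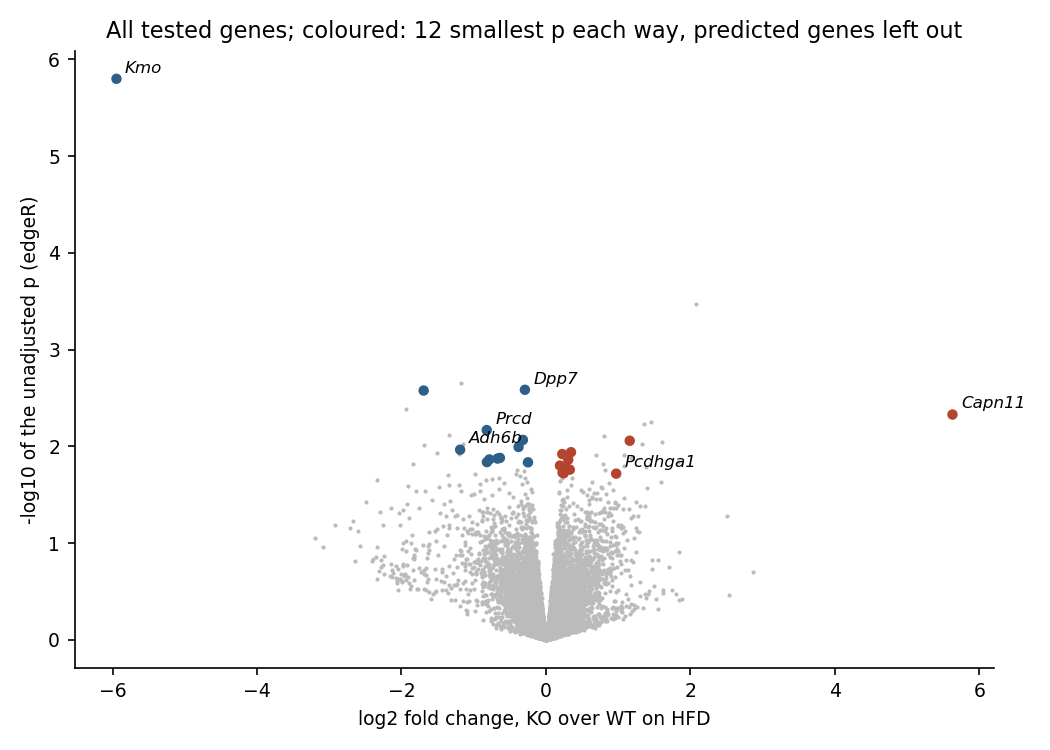
Log2 fold change of KO over WT on HFD (x axis) against the −log10 of the unadjusted edgeR p (y axis), 1 point per tested gene. Coloured points are the 12 genes with the smallest p in each direction, red higher and blue lower in KO, with predicted genes left out. Kmo at −5.95 stands apart from all others; the next points lie at much larger p.

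Kmo was nearly absent from KO fat. Its level was 0.0708, 0.133, 0.123 and 0.0697 CPM in the 4 KO HFD libraries, against 2.67, 13.7, 4.59 and 5.67 CPM in the 4 WT HFD libraries. Every KO library was far below every WT library, and the highest WT value belonged to the library richest in lymphoid RNA. Kmo fell by 5.95 on the log2 scale (SE 0.78, 95% interval −7.61 to −4.28, edgeR adjusted p = 0.0262). Summed over libraries, KO HFD held 6 reads of Kmo and WT HFD 416, a ratio of WT over KO of 67.4 after scaling to library size (95% counting interval 30.7 to 185, covering counting error only). Without the 2 lymphoid-rich libraries the log2 fold change was −5.20 and the edgeR adjusted p 0.287. The call was also lost on leaving out any KO HFD library, WT HFD replicate 4, KO chow replicate 3 or 4, or WT chow replicate 1; over the 16 such fits the log2 fold change ran from −6.22 to −5.32 and the edgeR adjusted p from 0.00324 to 0.273.

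No other enzyme of the kynurenine pathway passed the test. Of 13 listed enzymes, 9 had enough counts to test, and Ido1, Ido2, Acmsd and Aadat had 23, 9, 11 and 2 counts over the 8 libraries. Kmo was the only one of the 9 called. Tdo2, the liver-type enzyme that opens the pathway, had 1.60 ± 0.912 CPM in KO HFD and 1.65 ± 1.08 CPM in WT HFD. Afmid, the formamidase of the next step, had 2.63 ± 0.421 CPM in KO HFD and 2.54 ± 0.487 CPM in WT HFD (SD, n = 4 each). The tested aminotransferases that can make kynurenic acid were the most abundant per length, while the aminotransferase Aadat was too scarce to test. Kyat1 had 5.49 CPM per kb of exon in KO HFD and 5.33 in WT HFD, Got2 had 4.18 and Kyat3 2.17 in KO HFD against 3.94 and 1.96 in WT HFD, and Kmo had 0.021 in KO HFD and 1.41 in WT HFD. Their log2 fold changes were 0.04 (SE 0.13), 0.08 (SE 0.21) and 0.14 (SE 0.20).

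Of the enzymes below Kmo in the pathway, Haao and Kynu were highest in the lymphoid-rich library of each genotype. Haao, the dioxygenase that acts on 3-hydroxyanthranilate, had 18.1, 1.07, 1.23 and 1.26 CPM in KO HFD, against 1.40, 12.5, 2.06 and 0.693 CPM in WT HFD. Kynu, kynureninase, had 3.96, 0.133, 0 and 0.209 CPM in KO HFD, against 0.127, 2.81, 0.200 and 0 CPM in WT HFD. For both genes KO replicate 1 and WT replicate 2 were far above the others, the same libraries that were rich in B and T cell RNA. Qprt, which makes the NAD precursor from quinolinate, had 2.69, 0.400, 0.553 and 0.697 CPM in KO HFD, against 0.381, 1.34, 0.532 and 1.45 CPM in WT HFD, where replicate 4 was slightly above replicate 2. Kmo stood at 0.0708 CPM in the lymphoid-rich KO library and 13.7 CPM in the lymphoid-rich WT library. None of the 15 tested genes of NAD synthesis, salvage and use was called (6 above 0 and 9 below, median log2 fold change −0.004). They ran from −0.11 to 0.20, with Sirt3, a mitochondrial NAD-dependent deacetylase, at the upper end (0.20, SE 0.15). Of 8 genes of the aryl hydrocarbon receptor and its targets, 5 were above 0 (median 0.13) and none was called; the median was 0.03 over the 8 HFD libraries alone and −0.01 without KO HFD replicate 1. The target Cyp1b1 had 36.0, 22.3, 19.9 and 29.0 CPM in KO HFD, against 18.6, 31.1, 30.0 and 36.1 CPM in WT HFD, and Tiparp, another target, was at 0.18 (SE 0.18).

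None of the genes beside Kmo passed the test. Kmo lies at chr1:175620381-175662116 (GRCm38) on the plus strand, and Fh1, encoding fumarate hydratase, overlaps it by 5255 bases on the other strand. Counting ignored strand, so reads of that stretch cannot be told apart. Opn3, encoding an opsin, ends 0.305 kb beyond the end of Kmo and had 14.2, 15.1, 14.7 and 21.3 CPM in KO HFD, against 21.7, 18.8, 15.2 and 28.9 CPM in WT HFD. The Opn3 groups overlapped (log2 fold change −0.37, SE 0.21). Fh1 was at −0.10 (SE 0.16), Chml at −0.11 (SE 0.17), Rgs7 at −0.20 (SE 0.20) and Exo1 at −0.64 (SE 0.75), with edgeR adjusted p of 1 for each. Within 10 Mb of Kmo, 191 genes were tested and 2 (1.05%) had no overlap between the groups, Kmo itself and the antibody receptor gene Fcgr4, a share below the 1.42% of all genes.

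Among genes higher in KO, none passed the test, and the values below are therefore descriptions. Capn11, encoding a calpain protease, had 0.142, 2.60, 3.38 and 1.74 CPM in KO HFD, against 0, 0, 0 and 0.126 CPM in WT HFD. KO replicate 1, with 2 counts, was hardly above WT replicate 4, which also had 2. On chow the gene had 0.818, 0.136, 2.18 and 0 CPM in KO, against 0.261, 3.04, 0.732 and 0 CPM in WT, so both genotypes on chow held libraries near 0 and libraries above 2 CPM. Capn11 had a log2 fold change of 5.63 (SE 1.69) and an edgeR adjusted p of 1. In the authors' deposited table its shrunken value was 5.35 with an adjusted p of 0.0516.

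More abundant genes differed by small steps. Ptprd, encoding a receptor tyrosine phosphatase, had 88.5, 106, 103 and 105 CPM in KO HFD, against 77.0, 75.8, 76.0 and 87.7 CPM in WT HFD; KO replicate 1 and WT replicate 4 nearly met. Ncoa1, a coactivator of nuclear receptors, had 70.0, 71.5, 74.1 and 72.9 CPM in KO HFD, against 60.7, 65.9, 59.8 and 65.9 CPM in WT HFD, so that the groups were tight and separate. Ffar4, the receptor for long-chain fatty acids on adipocytes, had 23.7, 27.1, 26.7 and 28.8 CPM in KO HFD, against 23.6, 18.8, 19.2 and 24.2 CPM in WT HFD, and WT replicate 4 exceeded KO replicate 1. Their log2 fold changes were 0.35 (SE 0.12), 0.19 (SE 0.07) and 0.31 (SE 0.11). Ddx27, an RNA helicase of ribosome assembly, was at 0.23, Kmt2e, a chromatin regulator, at 0.33, Dcaf1, a substrate receptor of a ubiquitin ligase, at 0.23, Myo9a, an unconventional myosin, at 0.24 and Zcchc9, a zinc finger protein, at 0.28, each without overlap. Inpp1, an inositol phosphatase, was at 0.28 with overlap. Ldha-ps2 (1.16) and Glns-ps1 (0.77) are pseudogenes whose reads can belong to a near-identical copy, and Pcdhga1 (0.97) shares exons with its gene cluster, so these 3 are uncertain. The other genes with the largest separated values were scarce: the secreted protein gene Scube3 had 0.934 to 2.41 CPM in KO HFD and 0.378 to 0.931 in WT HFD, and Zfp872 had 1.97 to 2.54 in KO HFD and 0.732 to 1.85 in WT HFD. The edgeR adjusted p was 1 for each of these genes.

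**Figure D3:**
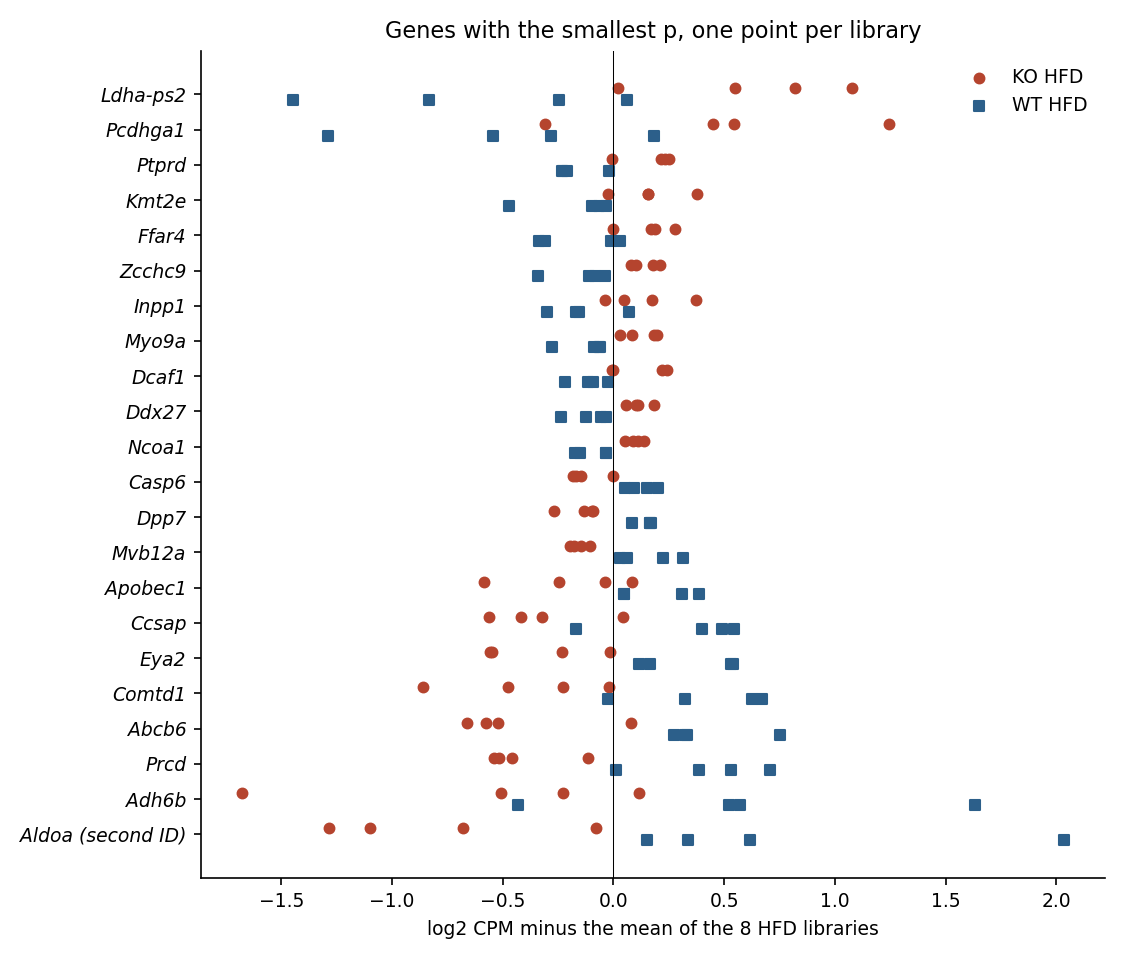
Log2 CPM of each HFD library minus the mean of the 8 libraries (x axis) for the genes with the smallest p other than Kmo and Capn11; red circles are KO HFD and blue squares WT HFD libraries. Most separations are small, as for Ncoa1 and Mvb12a, and the widest rows, such as Adh6b and the second Aldoa identifier, vary widely within each group.

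Among genes lower in KO other than Kmo, none passed the test. Dpp7, encoding a dipeptidyl peptidase of lysosomes and secretory vesicles, had 21.2, 23.2, 23.9 and 23.8 CPM in KO HFD, against 28.7, 28.6, 28.6 and 27.0 CPM in WT HFD. Its groups were separated by more than the range within either, with a log2 fold change of −0.29 (SE 0.08), and in the authors' deposited table the shrunken value was −0.16 with an adjusted p of 1. Mvb12a, a subunit of the ESCRT-I complex that sorts cargo for the lysosome, had 21.7, 21.02, 22.4 and 21.3 CPM in KO HFD, against 28.2, 24.6, 29.9 and 25.1 CPM in WT HFD. All KO values again lay below all WT values (−0.32, SE 0.11). Casp6, an executioner caspase, had 16.001, 14.5, 14.2 and 14.1 CPM in KO HFD, against 18.4, 16.6, 17.1 and 17.8 CPM in WT HFD (−0.25, SE 0.09). Eya2, a transcriptional coactivator with phosphatase activity, had 4.60, 3.67, 5.34 and 3.70 CPM in KO HFD, against 7.82, 6.06, 7.85 and 5.86 CPM in WT HFD (−0.67, SE 0.24). The groups of Casp6 and Eya2 did not overlap.

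Timp1, the inhibitor of metalloproteinases, had 2.12, 1.80, 2.15 and 1.67 CPM in KO HFD, against 2.54, 4.91, 4.12 and 2.20 CPM in WT HFD. Fcgr4, an activating Fc receptor of myeloid cells, had 1.91, 0.868, 1.72 and 1.32 CPM in KO HFD, against 2.22, 4.02, 3.39 and 1.95 CPM in WT HFD. For both, WT replicates 2 and 3 were the high ones and WT replicate 4 came close to the KO range (−0.83, SE 0.33, and −0.99, SE 0.38). Abcb6, a porphyrin transporter, was at −0.82, Prcd at −0.82, the atypical cadherin Fat3 at −1.19 and the second Aldoa identifier (ENSMUSG00000114515) at −1.69, all scarce and without overlap. Apobec1, the editing enzyme of apolipoprotein B mRNA, was at −0.38, Ccsap at −0.64, Comtd1 at −0.78 and the alcohol dehydrogenase gene Adh6b at −1.19, all with overlap. The edgeR adjusted p was 1 for each of these genes.

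Lysosome genes lay below WT together. The list held 21 genes of the lysosome, and all 21 were tested; cathepsins B and D and acid lipase stood in another list. All 21 had a log2 fold change below 0, where 49.4% of all genes tested did, and the median was −0.15, where that of all genes was 0.002. A sign shared by a whole list also occurred where no direction can be given. All 11 B cell genes and all 12 T cell genes were above 0, yet both medians were below 0 without KO HFD replicate 1. None was called, 2 had an unadjusted p under 0.05 on the lower side (Ctsz and Dpp7; 0.58% of all genes did), and 3 had no overlap on the lower side (Dpp7, Npc2 and Grn; 0.562% of all genes). Dpp7 was known from earlier results on these data, and without it 20 of 20 members were below 0 with a median of −0.13. The list was itself chosen with earlier results known, so leaving Dpp7 out gives no independent check. All members were measured in the same libraries, so their signs are not separate observations. The mean log2 CPM of the list was 7.07, 7.09, 7.09 and 7.01 in KO HFD libraries, against 7.16, 7.27, 7.27 and 7.15 in WT HFD libraries. All KO values were below all WT values, by a narrow margin next to the spread (7.07 ± 0.04 in KO HFD and 7.21 ± 0.07 in WT HFD, SD, n = 4 each). Summed, the members took 5874 to 6533 CPM in KO HFD and 6602 to 7517 CPM in WT HFD.

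The members with the largest differences had varied roles. Npc2, which hands cholesterol out of the lysosome, had 512, 745, 752 and 644 CPM in KO HFD, against 755, 788, 926 and 783 CPM in WT HFD. Ctsz, encoding the carboxypeptidase cathepsin Z, had 216, 247, 237 and 190 CPM in KO HFD, against 270, 281, 307 and 236 CPM in WT HFD, where WT replicate 4 fell within the KO range. Grn, encoding the progranulin precursor, had 287, 332, 328 and 302 CPM in KO HFD, against 343, 386, 415 and 342 CPM in WT HFD, with no overlap. Their log2 fold changes were −0.29 (SE 0.16), −0.30 (SE 0.11) and −0.25 (SE 0.15), with an edgeR adjusted p of 1. Hexa, a subunit of beta-hexosaminidase, was at −0.23 (SE 0.13), the sialidase gene Neu1 at −0.20 (SE 0.10) and Ctsa, its protective protein, at −0.19 (SE 0.11). At the small end, Mcoln1, a calcium channel of the lysosome membrane, was at −0.08 (SE 0.09).

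Promoters of lysosome genes often carry an E-box within a palindrome known as the CLEAR element, to which the factor TFEB binds, and they are shown because these members lay on the same side of WT. RefSeq gave a window from 250 bases before to 50 bases after the start for 16 of the 21 genes. The E-box CACGTG, its own reverse complement, was present in 6 of the 16 windows (37.5%), against 11.2% of the windows of tested genes. The longer TCACGTGA, which holds the E-box, was present in Dpp7, Ctsa and Mcoln1, 3 of 16 (18.8%) against 2.03% of tested genes. The full palindrome, with a further G before it and C after it, was in 0 of 16, against 0.722% of tested genes. The matches are printed in the direction of the gene, with TCACGTGA in capitals, from GRCm38.p6: Dpp7 at chr2:25356385-25356420 on the minus strand, Ctsa at chr2:164833746-164833772 on the plus strand and Mcoln1 at chr8:3500459-3500494 on the plus strand.
Dpp7: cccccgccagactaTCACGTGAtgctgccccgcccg
Ctsa: caatgagcaaactgTCACGTGAtgcag
Mcoln1: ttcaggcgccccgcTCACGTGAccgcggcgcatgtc
The 3 genes with this motif had log2 fold changes of −0.29, −0.19 and −0.08, while Ctsz and Grn, which also had windows, are not among them. A match in such a window is a description of the letters and does not show binding. The shares depend only on which genes were listed and would be the same at any fold change. Tfeb, itself a member of the list, was at −0.04 (SE 0.20) with overlap between the groups.

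Lysosome genes stayed mostly below 0 in the fits below, with medians nearer 0 than the −0.15 of the main fit. The list kept a median of −0.10 with 19 of 21 members below 0 when lymphoid and muscle values were both covariates, −0.13 with 20 of 21 without the 2 lymphoid-rich libraries, and −0.11 with 18 of 21 when the macrophage value was a covariate. That macrophage value, the mean log2 CPM of 16 genes, was 5.75, 5.28, 5.03 and 5.35 in KO HFD libraries, against 4.90, 5.94, 5.76 and 5.54 in WT HFD libraries, so the groups overlapped. Among fits with 1 library left out, the one without WT HFD replicate 2 gave the lysosome median nearest 0, −0.10 with 19 members below 0. On chow 17 of the 21 members were below 0 (median −0.06) and the libraries overlapped, at 7.01, 6.79, 6.84 and 7.00 in KO and 6.88, 7.15, 6.97 and 6.87 in WT. No member was called for a genotype effect that differed between the 2 diets (0 called), though 15 of the 21 had a lower effect on HFD. The values show neither that the lower level belongs to HFD nor that the effects were equal.

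**Figure D4:**
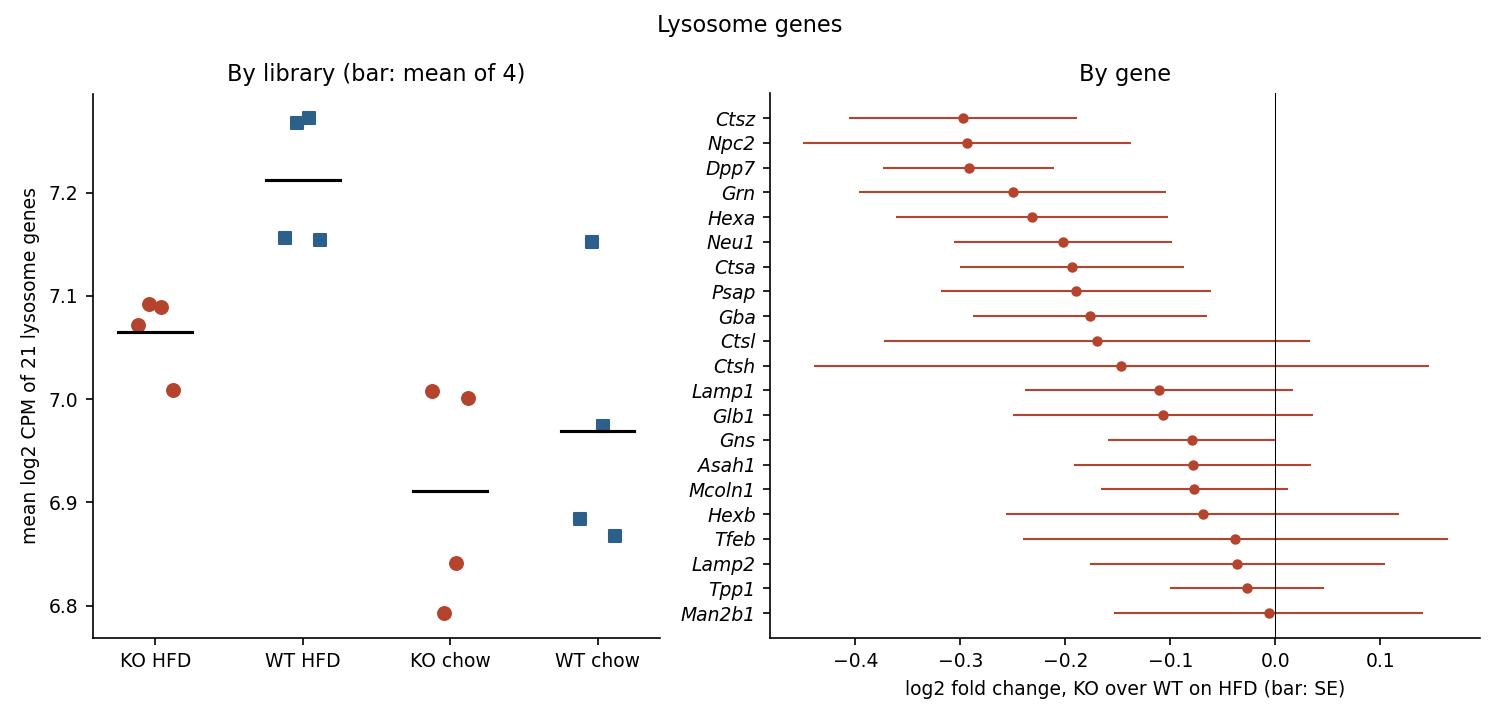
Mean log2 CPM of 21 lysosome genes in each library of the 4 groups (left, bars are means of 4) and the log2 fold change of each gene in KO over WT on HFD with its SE (right). On HFD the KO libraries sit at 7.01 to 7.09, all below the WT libraries at 7.15 to 7.27, and on chow the genotypes overlap.

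Genes of macrophages and inflammation were also below 0 in most members, with more spread. Macrophage genes were below 0 in 13 of 16 (median −0.26) and genes of lipid-associated macrophages in 16 of 18 (median −0.29, and −0.14 with the muscle value as a covariate), with none called. C1qb, a complement subunit of tissue macrophages, had 135, 123, 116 and 133 CPM in KO HFD, against 103, 178, 193 and 207 CPM in WT HFD, so WT replicate 1 was the lowest of all 8. Ctsb, encoding cathepsin B, had 2252, 2712, 2698 and 2474 CPM in KO HFD, against 2867, 2821, 3067 and 2938 CPM in WT HFD, and was the only member of these lists without overlap (−0.21, SE 0.13). Lgals3, encoding galectin 3, was at −0.44 (SE 0.32), Cd68 at −0.30 (SE 0.27) and Ctsd at −0.32 (SE 0.18), all overlapping.

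Interferon response genes were below 0 in 18 of 20 members (median −0.20), and 13 of 20 were above 0 on chow. Gbp2, a guanylate-binding protein induced by interferon, had 69.0, 77.9, 78.0 and 68.8 CPM in KO HFD, against 89.2, 80.4, 101 and 79.7 CPM in WT HFD, the only member without overlap. Irf7 was at −0.33 (SE 0.22), Gbp5 at −0.33 (SE 0.21) and Bst2 at −0.26 (SE 0.16). Inflammatory cytokines and receptors were below 0 in 13 of 15 tested members (median −0.34, with Il6, Il10, Ccl3 and Cxcl2 too scarce to test). The chemokine gene Ccl8 had 15.7, 16.02, 20.3 and 24.1 CPM in KO HFD, against 6.48, 34.7, 43.6 and 41.3 CPM in WT HFD, where WT replicate 1 was lowest and the other 3 were above every KO library. Il1rn, the interleukin 1 receptor antagonist, was at −0.84 (SE 0.59). The interferon median was −0.03 and the inflammatory median −0.11 without the 2 lymphoid-rich libraries, and the inflammatory median was −0.17 with the muscle value as a covariate and −0.05 without WT HFD replicate 2.

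Matrix and secretory-pathway genes showed small negative medians. Extracellular matrix genes were below 0 in 21 of 23 members (median −0.07), with Timp1 the only member at an unadjusted p under 0.05, and the median was 0.035 with the muscle value as a covariate. Genes of endoplasmic reticulum stress and the amino acid response were below 0 in 16 of 19 members (median −0.07). Chac1, a glutathione-degrading enzyme induced by that response, had 6.51, 5.47, 6.33 and 3.97 CPM in KO HFD, against 9.34, 5.94, 8.31 and 7.31 CPM in WT HFD, with KO replicates 1 and 3 above the lowest WT library (−0.47, SE 0.22). The chaperone genes Hsp90b1 and Sdf2l1 were at −0.25 (SE 0.12) and −0.41 (SE 0.22). Adipose progenitor and fibroblast genes were below 0 in 11 of 13 members (median −0.15, but −0.0011 with the macrophage value as a covariate), with Ly6a at −0.37 (SE 0.26). Endothelial genes were above 0 in 7 of 15 (median −0.01, and 0.10 with the muscle covariate).

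**Figure D5:**
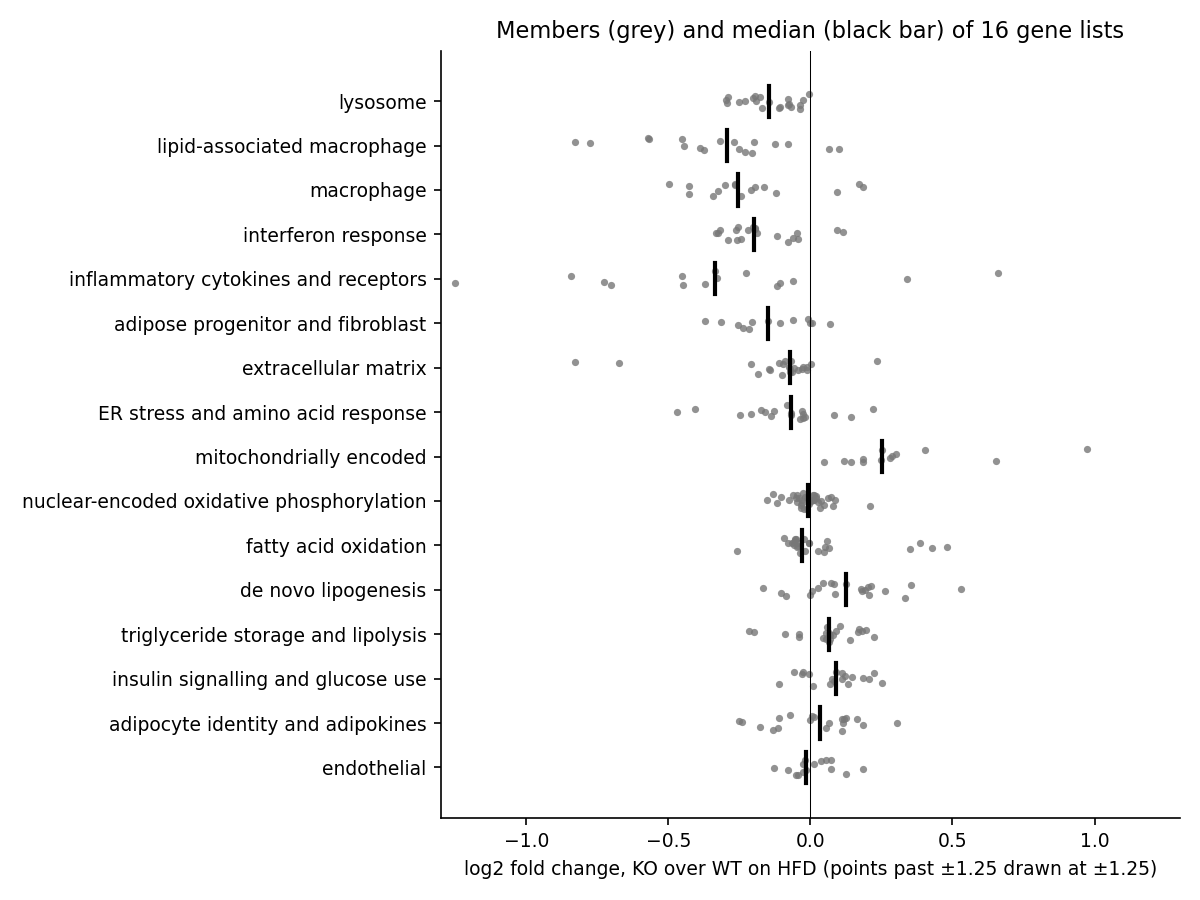
Log2 fold change of KO over WT on HFD for the members (grey points) and the median (black bar) of 16 gene lists, with points beyond the axis drawn at its edge. Lysosome genes are all below 0, mitochondrially encoded genes are all above 0, and the macrophage and inflammatory lists spread widely below 0.

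Most lipid-making and insulin-pathway genes were above 0, with no call among them. De novo lipogenesis genes were above 0 in 17 of 21 members (median 0.13). Thrsp, a regulator of lipogenesis, had 378, 372, 267 and 527 CPM in KO HFD, against 172, 184, 241 and 471 CPM in WT HFD, where WT replicate 4 exceeded 3 KO libraries (0.53, SE 0.40). Fasn, fatty acid synthase, had 2183, 4746, 3300 and 4079 CPM in KO HFD, against 2068, 3223, 3735 and 2323 CPM in WT HFD, with wide overlap (0.33, SE 0.32), and the desaturase gene Scd1 was at 0.35 (SE 0.29). Triglyceride storage and lipolysis genes were above 0 in 18 of 23 (median 0.06, Plin1, the lipid droplet coat, 0.23 with SE 0.15). Insulin signalling and glucose use genes were above 0 in 14 of 19 (median 0.09), with the glucose transporter gene Slc2a4 at 0.20 (SE 0.14), Irs1 at 0.25 (SE 0.22) and Gys1 at 0.18 (SE 0.12). Branched-chain amino acid breakdown genes were above 0 in 16 of 18 (median 0.07), but their median was −0.01 without KO HFD replicate 4 or WT HFD replicate 2 and 0.018 with the muscle value as a covariate. Adipocyte identity genes were above 0 in 12 of 20 (median 0.03), Pparg, the master factor of adipocytes, at 0.13 (SE 0.16) and the secreted factor Nrg4 at 0.30 (SE 0.19). The lipogenesis median was 0.03 with the muscle value as a covariate and 0.02 without KO HFD replicate 4, and that of the identity genes was −0.04 without WT HFD replicate 2 and 0.13 with the muscle covariate.

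Fatty acid oxidation as a list did not separate from 0, with 9 of 26 members above 0 and a median of −0.03 (−0.08 to 0.07 when each HFD library was left out). Ppargc1a, the coactivator of mitochondrial biogenesis, had 12.2, 12.1, 11.4 and 17.4 CPM in KO HFD, against 9.60, 7.40, 8.65 and 12.4 CPM in WT HFD (0.48, SE 0.20, unadjusted p = 0.0281, edgeR adjusted p = 1). WT replicate 4 exceeded 3 of the KO libraries. Ppara, the fatty acid sensor that turns on oxidation genes, had 8.43, 7.27, 6.82 and 6.69 CPM in KO HFD, against 6.29, 4.98, 5.05 and 6.55 CPM in WT HFD, without overlap (0.35, SE 0.22). The thioesterase gene Acot2 was at 0.39 (SE 0.18). The oxidation genes named here were all above 0, while 17 of the 26 list members were below 0, down to −0.26. In the thermogenic list 11 of 18 tested members were above 0 (median 0.06, but −0.04 with the muscle value as a covariate), with the brown fat regulator Prdm16 at 0.21 (SE 0.14). The other 7 were below 0, and the members ran from −2.39 to 0.48.

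All 13 mitochondrially encoded transcripts were above 0 (median 0.25), while 16 of 38 nuclear-encoded genes of oxidative phosphorylation were (median −0.01). None of either list was called. The size of the difference was uneven over the 13. mt-Co1, the most abundant with means of 12617 CPM in KO HFD and 12213 CPM in WT HFD, was at 0.05 (SE 0.22). With lymphoid and muscle values both as covariates it was at −0.08, the only member below 0 in that fit. The largest values were those of mt-Atp8, mt-Nd4l (0.65, SE 0.43) and mt-Atp6, all with far fewer counted reads than mt-Co1. Whether their transcripts were scarce or their reads were left uncounted was not tested. The mean log2 CPM of the 13 was 8.15, 7.74, 7.96 and 7.96 in KO HFD libraries, against 7.86, 7.63, 7.13 and 7.89 in WT HFD libraries, which overlapped, with WT replicate 3 the lowest. That library also had the highest muscle value. mt-Nd5, a subunit of complex I, had 3434, 2641, 3631 and 3384 CPM in KO HFD, against 2921, 2677, 1897 and 3232 CPM in WT HFD (0.29, SE 0.20). mt-Atp8, of the ATP synthase, was the only one without overlap, at 2.48, 1.67, 1.47 and 1.67 CPM in KO HFD, against 1.21, 0.893, 0.266 and 1.32 CPM in WT HFD (0.97, SE 0.44), and it overlaps the gene of mt-Atp6 (0.40, SE 0.29). The median of the list was 0.22 with the muscle value as a covariate and 0.15 to 0.34 when each HFD library was left out.

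Large folds were mostly lower in KO, and most no longer passed 1 with muscle RNA as a covariate. Skeletal muscle genes were below 0 in all 17 tested members (median −1.87, and −2.75 to −0.90 when each HFD library was left out), with none called. Myh4, a fast myosin, had 112, 1.74, 73.4 and 4.11 CPM in KO HFD, against 151, 145, 661 and 11.7 CPM in WT HFD, a range within each group far wider than the difference (−2.34, SE 1.88), and Acta1, skeletal actin, was at −1.83 (SE 1.19). With the muscle value as a covariate the median of the list was 0.003. Of 157 genes with a log2 fold change past 1 in either direction and a mean of at least 1 CPM in a group, 25 were higher and 132 lower in KO, and 43 stayed past 1 in the same direction with that covariate. Of the 157, 8 (5.1%, against 1.42% of all genes) had no overlap between the groups, among them Kmo, Capn11, Scube3, Fat3 and the second Aldoa identifier, and 6 of those 8 stayed past 1. Choosing genes for a large difference between these same libraries raises such a share by itself. B cell genes had a median of 0.19 and T cell genes of 0.44, and these turned to −3.52 and −1.81 without KO HFD replicate 1 and to 3.44 and 1.72 without WT HFD replicate 2, so no direction can be given for them.

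The immediate early gene Fosb showed the widest difference among the stress lists, with 2.19, 24.1, 42.2 and 16.2 CPM in KO HFD, against 2.35, 8.998, 2.59 and 0.945 CPM in WT HFD (2.51, SE 1.18, edgeR adjusted p = 1). KO replicate 1 was at the WT level and WT replicate 2 above it. Its list was above 0 in 9 of 15 members (median 0.13, but −0.10 without KO HFD replicate 2), with Nr4a1 at 0.53 (SE 0.50). Clock genes were above 0 in 10 of 16 (median 0.06, but −0.29 without the 2 lymphoid-rich libraries), with Hlf at 0.40 (SE 0.29).

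No gene was called for a genotype effect on HFD that differed from that on chow, which does not show that the effects were equal. The test of the difference called 0 genes (0.0%) by edgeR, DESeq2 and limma-voom alike, with 187 (1.13%), 186 and 289 genes at an unadjusted p under 0.05. For Kmo the effect on HFD minus that on chow was −0.56 (SE 1.001, edgeR adjusted p = 1). Genes without overlap between KO and WT numbered 92 on chow (0.556%), against the 235 on HFD (1.42%).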

How the data were processed

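Poly-A RNA was sequenced in read pairs of 150 bases. The submitters' processing notes name STAR 2.7.3a and the GRCm38.p6 build. The deposited counts are whole read pairs per gene made by the authors with featureCounts 2.0.3 and the Ensembl 102 annotation without strand, per the file headers. The authors' deposited table of shrunken log2 fold changes and DESeq2 p-values was used only where named. Symbols matched for 55141 of 55487 genes.

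Low genes were removed with filterByExpr, TMM factors computed, and 4 group means fitted to all 16 libraries (edgeR 4.0.16, R 4.3.3, glmQLFit robust), with Benjamini-Hochberg adjustment. List values are mean log2 CPM with a prior count of 2. The members, 36 lists and tests were chosen with earlier results of these data known. Named genes are Kmo, the 12 smallest p and the 5 largest separated log2 fold changes in each direction with at least 1 CPM in a group and no predicted name, neighbours of Kmo within 1 Mb (1000 kb), kynurenine enzymes, and up to 4 members of each list; Grn, Hexa, Ctsa and Mcoln1 were chosen after their values were seen. Some genes the rule names are not reported here. The model was tested on simulated data. Alternatives were RLE and upper-quartile factors, DESeq2 1.42.0, limma-voom (3.58.1), other filters, sva 3.50.0, covariates and left-out libraries. No 2 HFD libraries agreed within sampling noise (lowest chi-square per gene 10.6). Separate animals are not stated per library, so p-values measure the spread between samples.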

Additional observations from a re-analysis of the deposited data

Results flagged for a closer look

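Of 262 sets of 4 libraries examined, 22 (8.4%) had a library far from the other 3 relative to the whole range of the 4. Chance gives about 1 in 20 such sets, and no explanation was weighed. Values are log2 CPM.

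KO HFD replicate 1, rich in lymphoid RNA, stood out most often. Its B and T cell value was 4.90, its T cell value 3.45, its lymph node stroma value 4.27 and its skin and mammary epithelium value 0.55, all high, and its cholesterol synthesis value of 5.01 was low. In the same library Haao was high at 4.19, Itgam high at 3.67 and Ptprd low at 6.47. In KO HFD replicate 4, Ppargc1a was high at 4.13, Opn3 high at 4.42 and Neu1 low at 4.95.

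WT HFD replicate 2, the other lymphoid-rich library, was high in lymph node stroma genes at 3.84. WT HFD replicate 1 was low in Myo9a at 5.41, Fcgr1 at 2.29, Ccl8 at 2.73 and Hexa at 7.00, and high in Abcb6 at 0.93 and Prdm16 at 4.77. WT HFD replicate 3 was low in Kmt2e at 5.84. WT HFD replicate 4 was high in Capn11 at −1.97 (2 counts against 0 in the others) and Ptprd at 6.46, and low in Dpp7 at 4.76, which brought Ptprd and Dpp7 nearer to the KO libraries.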

How the results depend on the processing

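Kmo was called, and was the only gene called, with relative log expression or upper-quartile factors, DESeq2 (also over the 8 HFD libraries alone), a filter of 1 CPM in 4 libraries, lymphoid, muscle, both or macrophage values as covariates and 1 surrogate variable. It was lost, leaving 0 genes called, with limma-voom with quality weights (−5.42) and without a filter (−5.95). The same held with only the 8 HFD libraries (−5.95) and without the 2 lymphoid-rich libraries (−5.20). It also held with only the libraries marked as merged in their column names (−6.14), where what was merged is not stated. Limma-voom without weights (−5.42) or over 8 libraries (−5.44) gave 0 calls too. The fits with limma-voom without weights or over 8 libraries, the macrophage covariate and DESeq2 over 8 libraries were chosen after seeing the data. The cause was not tested. Leaving out each library gave 0 to 1 genes called and Kmo at −6.22 to −5.32. The replicate numbers do not pair the samples (correlations −0.29, −0.41, 0.27 and 0.42); with the number as a block Kmo was at −5.82 and 1 gene was called. Genes at an unadjusted p under 0.05, 188, became 912 with voom, 847 with voom over 8 libraries, 524 without a filter, 295 with the lymphoid covariate, 317 with both, 319 with the surrogate variable, 371 in merged libraries and 122 to 384 on leaving out a library.

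Of 3156 values of other named genes, 45 changed sign and 0 were called; none of these were among the 30 ranked by p or separation, a stability that their selection largely fixes. With voom, Tdo2 became 0.0050, Afmid −0.057, Kynu −0.998, Haao −0.86, Qprt −0.30 and Got2 −0.045; over 8 libraries Afmid −0.085, Haao −0.92, Qprt −0.33 and Got2 −0.052; without weights Qprt −0.0062. In merged libraries Tdo2 was 0.61, Afmid −0.030, Kynu −3.65, Haao −2.56, Qprt −0.65, Got2 −0.24, Fh1 0.13 and Chml 0.021. Without the lymphoid-rich libraries Haao was −0.22, Qprt −0.52 and Got2 −0.089. With the replicate block Haao was −0.048. Qprt was −0.098 with the lymphoid covariate, −0.155 with both and −0.030 with the surrogate variable; Afmid was −0.063 and Kyat1 −0.020 with the muscle covariate, Kyat1 −0.033 with both, and Tdo2 0.20 with the macrophage covariate. Leaving out each library gave Kynu −2.74 to 3.21, Haao −1.81 to 1.96, Qprt −0.75 to 0.52, Got2 −0.12 to 0.19, Tdo2 −0.45 to 0.51, Afmid −0.067 to 0.15, Kyat1 −0.019 to 0.10, Cyp1b1 −0.29 to 0.012, Kyat3 −0.0081 to 0.35 and Rgs7 −0.35 to 0.033. The column name of KO HFD replicate 1 carried L4 and those of WT HFD replicates 3 and 4 carried L6. For these libraries that mark and genotype cannot be told apart. With 4 libraries a group, differences within the 95% intervals given could not be shown.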

Other observations

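Nerve and stress-hormone genes, not described above, held no call. Of 8 neural and Schwann cell genes tested, 4 were above 0 (median log2 fold change −0.02). Glucocorticoid and stress targets were above 0 in 3 of 11 members (median −0.18, but 0.026 with the muscle value as a covariate), antioxidant genes in 8 of 20 (median −0.04), hypoxia genes in 3 of 16 (median −0.08), cell cycle genes in 4 of 12 (median −0.06), cholesterol synthesis genes in 9 of 17 (median 0.002), erythrocyte genes in 2 of 5 (median −0.15) and class II antigen presentation genes in 1 of 7 (median −0.16). The class II median was −0.59 without KO HFD replicate 1, 0.21 without WT HFD replicate 2 and 0.0037 with the macrophage value as a covariate, so no direction can be given. Leaving out 1 HFD library also turned the sign of the medians of the neural, antioxidant, cell cycle, cholesterol synthesis and erythrocyte lists.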
